A study of Mus musculus with 6 samples.

Results

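The genes described here encode 10 secreted proteins that sit in or bind the extracellular matrix: the matricellular proteins Postn (periostin), Tnc (tenascin-C), Thbs1 and Thbs2 (the thrombospondins), Smoc1 and Smoc2 (modular calcium-binding relatives of Sparc), the heparin-binding growth factors Ptn (pleiotrophin) and Mdk (midkine), the integrin ligand Npnt (nephronectin) and the collagen triple helix protein Cthrc1. They were picked by gene symbol, which found all 10 among the 17830 genes of the deposited count table, and all 10 had reads in every library and entered the test. The libraries were made by bulk RNA sequencing of cells that the labels call skull osteoblasts, taken from 6-month-old mice that the study describes as male, with 3 libraries of control and 3 of APPswe. Control mice were mOCN-Cre; Ai9, and the APPswe mice were TgAPPswemOCN-Cre; Ai9. Both genotypes carry a Cre recombinase knocked in at the osteocalcin gene (Bglap), which marks mature osteoblasts, and the Ai9 reporter, which gives tdTomato once Cre has acted. APPswe mice carry in addition a human APP transgene with the Swedish mutations, expressed from the ubiquitous CAG promoter after Cre removes a stop cassette. The study describes cells grown out of cut calvarial bone in culture, and sorting for tdTomato before sequencing. Its account of the sequencing names no culture step, so that levels may or may not describe cultured cells. How many animals stand behind each library was not stated. The p-values below therefore measure the spread between libraries, which may be partly technical.

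Matricellular proteins are released into the matrix without building its scaffold. They bind collagens, growth factors, integrins and heparan sulfate chains, and are made most in development, in wound repair and at sites of mechanical load. In bone, periostin is a product of the periosteum and of sutures, thrombospondins and tenascin-C accompany osteoblast precursors, and pleiotrophin and midkine bind the same receptors and heparan sulfate proteoglycans.

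Library totals were 17263757 to 18398392 counts, so that 3 counts, taken as the floor of detection for counting error only, were worth 0.167 to 0.173 CPM, the usual unit of counts scaled to a common library size. Control replicate 2 stood apart: it held 2 counts over 4 Y-linked genes, against 2257 to 3406 in the other 5 libraries, and 1 count of Bglap, the gene that drives Cre, against 115 to 204. So few Y-linked counts are at odds with the male sex that the study gives, and the reason was not tested. The name of control replicate 2 carries the letter S after the genotype, where the names of the other 5 carry L. What the letters stand for is not given in the sources used here. All 6 labels give skull bone. In its results, the study also compares RNA-seq data of osteoblasts from femoral long bone and from skull, citing earlier work. Whether the letters mark different sources of cells could not be told. If they do, control replicate 2 and the other 5 libraries differ in source. In that case it could not be told which of them, the APPswe libraries included, came from skull. Within the control group, the chi-square per degree of freedom was 76.2 and 80.8 for the pairs with replicate 2 and 6.17 for replicates 1 and 3. The label was also compared with marker genes. The osteoblast collagen gene Col1a1 was at 3585 to 5705 CPM over the 6 libraries, yet the macrophage gene Lyz2 was at 7148 to 16085 CPM, so that macrophage transcripts were abundant among the sorted cells. In bulk samples, fewer cells of a type and less RNA per cell cannot be told apart. Each of the 10 genes is therefore given by library and tested also without control replicate 2.

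Of the 10 genes, 4 were called higher in APPswe than in control and 0 were called lower, where a call needed an adjusted p of at most 0.05 and a log2 fold change of at least 1 in size by edgeR's quasi-likelihood test over 13484 genes. These were Cthrc1, Npnt, Ptn and Postn, with increases of 2.87-fold to 4.13-fold. Over all genes tested, 3.74% were called higher and 3.60% lower. By the adjusted p alone, 6 of the 10 passed as higher, with Tnc and Thbs2 added, and 0 as lower, against 10.5% and 12.0% of all genes. The median log2 fold change of the 10 was 1.44, and that of all genes tested was -0.00. In 9 of the 10, all but Mdk, each APPswe library lay above each control library, a separation that 22.8% of all genes showed in that direction and 22.2% in the opposite one. Cthrc1, Npnt, Ptn and Smoc2 are among the secreted genes that the study itself displayed from these libraries, and so their direction here is not independent evidence. All 10 genes were chosen with earlier results of these data known, so the contrasts with all genes are a description only.

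**Figure D1:**
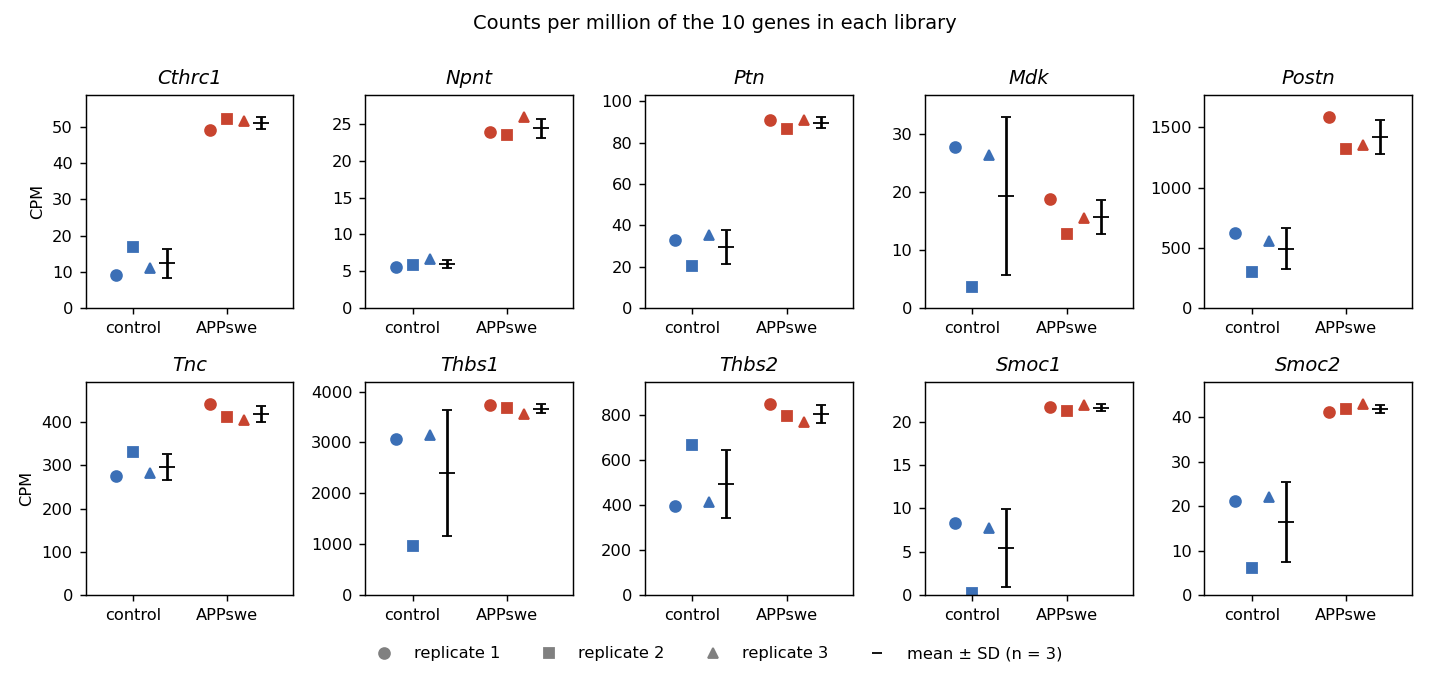
CPM (TMM scale, linear axes from 0) of each of the 10 genes in the 6 libraries, with control in blue, APPswe in red, a marker shape for each replicate number, and the mean ± SD of each group (n = 3) as a bar. The APPswe points lie above all control points in every panel except that of Mdk, and control replicate 2 lies far below the other controls for Mdk, Thbs1, Smoc1 and Smoc2.

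The genes lie on 7 chromosomes of the GRCm38 build. Smoc2 (chr17:14279506-14404790, plus strand) and Thbs2 (chr17:14665500-14694235, minus strand) lie close together. Postn (chr3:54361109-54391037, plus) shares a chromosome with Npnt (chr3:132881745-132950291, minus), and Mdk (chr2:91929805-91932297, minus) with Thbs1 (chr2:118111876-118127133, plus), each pair far apart. Cthrc1 is at chr15:39076932-39087121 (plus), Ptn at chr6:36714929-36810220 (minus), Tnc at chr4:63959785-64047015 (minus) and Smoc1 at chr12:81026808-81186414 (plus), by GENCODE M21. Npnt, Tnc, Thbs1 and Smoc2 each overlap a non-coding gene on the opposite strand (Gm23196, 8030451A03Rik, Gm29233 and 4930474M22Rik), and Smoc1 overlaps Mir3067 on its own. Whether counting used the strand is not given in the sources used here, so reads of these partners cannot be told apart from those of the genes. Of the 50-base words of the longest coding transcript, 0.199% of those of Mdk also occur in the pseudogene Mdk-ps1, and 0 of those of the other 9 genes occur in another gene.

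Promoter sequence was read for the 3 called genes with an entry in the RefSeq table (GRCm38.p6), to show what the starts of genes that were higher together have in common. Each is written 5' to 3' on the gene's strand and ends at, or for Ptn short of, the base before the annotated start, with bases covered by a transcript left out. None of the matches overlap, and capitals mark matches on either strand to TATAAA (the TATA box), CCAAT (the CCAAT box), GGGCGG (the GC box), TGANTCA (an AP-1 site), GGAATG (a TEAD site) or CAGAC (a SMAD-type element).
Npnt, chr3:132950292-132950541, minus strand: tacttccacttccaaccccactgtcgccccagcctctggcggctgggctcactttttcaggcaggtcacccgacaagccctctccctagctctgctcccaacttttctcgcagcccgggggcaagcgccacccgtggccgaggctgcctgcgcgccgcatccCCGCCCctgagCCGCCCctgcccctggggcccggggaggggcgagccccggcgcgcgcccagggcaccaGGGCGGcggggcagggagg
Ptn, chr6:36810221-36810429, minus strand: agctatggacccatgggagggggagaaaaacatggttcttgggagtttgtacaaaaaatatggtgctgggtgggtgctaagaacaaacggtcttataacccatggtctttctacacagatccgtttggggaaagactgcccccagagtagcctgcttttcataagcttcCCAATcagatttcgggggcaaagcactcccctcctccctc
Postn, chr3:54360857-54361106, plus strand: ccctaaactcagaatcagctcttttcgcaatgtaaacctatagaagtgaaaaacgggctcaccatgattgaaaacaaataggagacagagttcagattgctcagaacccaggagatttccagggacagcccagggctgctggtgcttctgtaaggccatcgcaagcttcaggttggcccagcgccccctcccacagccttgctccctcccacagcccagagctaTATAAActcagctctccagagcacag
The 3 promoters shared no motif. Postn held TATAAA at -26, counted back from the start, Ptn held CCAAT at -81, and Npnt held GGGCGG at -88, -77 and -19, the first 2 of these on the minus strand. Of 32851 promoter windows of 250 bases, 12.4% held TATAAA, 33.8% CCAAT, 32.7% GGGCGG, 42.2% CAGAC, 12.6% GGAATG and 6.75% TGANTCA. Tnc and Thbs2, which also had an entry, each held TATAAA at -126, on the plus strand for Tnc and on the minus strand for Thbs2. Tnc also held GGGCGG at -167, and Thbs2 held CCAAT at -186 and -144 and CAGAC at -66 and -43. None of the 5 windows held TGANTCA or GGAATG. A match describes these letters only and is not evidence of binding.

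Cthrc1, a secreted glycoprotein of activated fibroblasts and of osteoblasts and osteoclasts that modulates Wnt signalling, was among the 3 genes with a log2 fold change near 2, with Npnt and Smoc1. Its levels were 9.12, 16.9 and 10.9 CPM in control replicates 1, 2 and 3 and 49.1, 52.0 and 51.7 CPM in APPswe replicates 1, 2 and 3. The lowest APPswe library was above the highest control library, which was replicate 2. Group means were 12.3 ± 4.08 CPM in control and 50.9 ± 1.63 CPM in APPswe (SD, n = 3 each). On the log2 scale the difference was 2.05, with a standard error of 0.22 and a 95% interval of 1.52 to 2.57 (edgeR, adjusted p = 0.00192). It was 2.34 without control replicate 2.

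Npnt, which binds the integrin made of the Itga8 and Itgb1 chains and is known for its part in kidney development and osteoblast differentiation, was the most even of the 10 among controls. It measured 5.54, 5.90 and 6.60 CPM in control and 23.9, 23.5 and 25.9 CPM in APPswe. Control replicate 2, which departed from the other controls for most of the 10 genes, lay between them for Npnt. APPswe exceeded control by a log2 fold change of 2.02 with a standard error of 0.12 (95% interval 1.73 to 2.30, edgeR adjusted p = 0.000406), the smallest adjusted p of the 10, and it was 2.01 without that library.

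Ptn and Mdk are the only members of their family of heparin-binding growth factors. Ptn, which acts on neurite outgrowth and on the recruitment of bone-forming cells, measured 33.1, 20.2 and 35.6 CPM in control and 91.0, 86.5 and 91.1 CPM in APPswe. Every APPswe library was above every control, and control replicate 2 was the lowest of all 6. For Ptn the log2 fold change was 1.60 with a standard error of 0.20 (95% interval 1.11 to 2.08, edgeR adjusted p = 0.00340), and 1.39 without control replicate 2.

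Mdk, a negative regulator of bone formation under load in mice, measured 27.8, 3.65 and 26.4 CPM in control and 18.7, 12.8 and 15.6 CPM in APPswe. The groups overlapped, with the 3 APPswe libraries between control replicate 2 and the other controls. With all libraries the log2 fold change was -0.30 with a 95% interval of -1.82 to 1.22 (edgeR, adjusted p = 0.772), an interval wide enough to hold both a decrease and an increase of more than 2-fold. Without control replicate 2, Mdk was lower in APPswe, with a log2 fold change of -0.79 (adjusted p = 0.000697). That library held 7.42-fold less Mdk than the mean of the other controls. Left without control replicate 1 instead, the value turned to 0.058.

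The ratio of Ptn to Mdk per transcript length, taken from the authors' FPKM (fragment counts scaled by transcript length and sequencing depth), placed both growth factors on a common scale. It was 0.530, 2.41 and 0.601 in control and 2.14, 3.02 and 2.59 in APPswe. Mdk thus exceeded Ptn in control replicates 1 and 3, and Ptn exceeded Mdk in all APPswe libraries and in control replicate 2.

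Postn, the periosteal matrix protein that binds collagen I and tenascin-C, had the highest FPKM of the 4 called genes. It measured 626, 300.3 and 555 CPM in control and 1583, 1324 and 1351 CPM in APPswe. The lowest APPswe library held more than 2-fold the Postn of the highest control library. Means were 494 ± 171 CPM in control and 1419 ± 142 CPM in APPswe (SD, n = 3 each). Postn thus rose by 1.52 on the log2 scale, with a standard error of 0.26 (95% interval 0.89 to 2.15, edgeR adjusted p = 0.00967). It was 1.27 without control replicate 2, the lowest of the controls.

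Tnc, a hexameric adhesion-modulating glycoprotein of wounds and tendons, moved less. It measured 276, 331 and 283 CPM in control and 440.3, 412 and 403 CPM in APPswe. The groups did not overlap, and control replicate 2 was the control nearest to APPswe. Its log2 fold change of 0.50 (standard error 0.10, 95% interval 0.27 to 0.72) passed the adjusted p (edgeR, 0.0140) but not the fold that a call needed. Tnc gave 0.59 without control replicate 2 (adjusted p = 2.62e-05), and still passed the adjusted p without control replicate 1 (0.0490). It no longer passed when control replicate 3 (0.0505), APPswe replicate 1 (0.0620), APPswe replicate 2 (0.0674) or APPswe replicate 3 (0.0599) was left out.

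Thbs1, an activator of latent TGF-beta and a ligand of Cd47 and Cd36, had the highest FPKM of the 10 genes. It measured 3073, 973 and 3154 CPM in control and 3736, 3676 and 3563 CPM in APPswe. Control replicates 1 and 3 were close to the APPswe libraries, and control replicate 2 was 3.20-fold below their mean. For Thbs1 the log2 fold change of 0.61 had a 95% interval of -0.35 to 1.57 and did not pass (edgeR, adjusted p = 0.315). It was smaller without control replicate 2, at 0.24, but passed the adjusted p (0.00413).

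Thbs2, which shares its domain architecture with Thbs1 and binds matrix metalloproteinase 2, measured 398, 667 and 415 CPM in control and 848, 797 and 769 CPM in APPswe. Control replicate 2 was the highest control for Thbs2 and the lowest for Thbs1. A log2 fold change of 0.71 (standard error 0.20, 95% interval 0.22 to 1.19) passed the adjusted p narrowly (edgeR, 0.0487) and not the fold. The adjusted p was 0.121 to 0.150 when any 1 of the other libraries was left out (control replicates 1 and 3, APPswe replicates 1, 2 and 3). With control replicate 2 left out, the log2 fold change was 0.99 (adjusted p = 6.12e-07), just under the fold for a call.

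The ratio of the thrombospondins in FPKM set control replicate 2 apart from all other libraries. Thbs1 over Thbs2 was 7.82, 1.48 and 7.71 in control and 4.46, 4.67 and 4.70 in APPswe. The APPswe ratios lay between control replicate 2 and the other controls, with a spread of 0.130 (SD) against 3.63 in control.

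Smoc1 and Smoc2 encode basement membrane proteins with follistatin-like and calcium-binding domains, of which Smoc1 is known as an antagonist of bone morphogenetic protein signalling. Smoc1 measured 8.26, 0.281 and 7.79 CPM in control, from 143, 5 and 138 counts, and 21.7, 21.2 and 21.9 CPM in APPswe. The APPswe libraries were tight, with an SD of 0.352 CPM, whereas control replicate 2 was 28.5-fold below the mean of the other controls and within 5 counts of 0. Its log2 fold change of 1.99 had a 95% interval of 0.07 to 3.91 and did not pass after adjustment (edgeR, adjusted p = 0.124). It was 1.43 without control replicate 2 (adjusted p = 1.02e-06), and Smoc1 was then called.

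Smoc2 measured 21.1, 6.01 and 22.1 CPM in control and 41.1, 41.9 and 42.9 CPM in APPswe. The pattern was that of Smoc1 at a smaller size: no overlap, tight APPswe libraries, and control replicate 2 lower than its group, here by 3.59-fold. For Smoc2 the log2 fold change was 1.36 (95% interval 0.34 to 2.38) and did not pass (edgeR, adjusted p = 0.0641). It was 0.96 without control replicate 2 (adjusted p = 3.69e-06), which passed the adjusted p and not the fold.

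**Figure D2:**
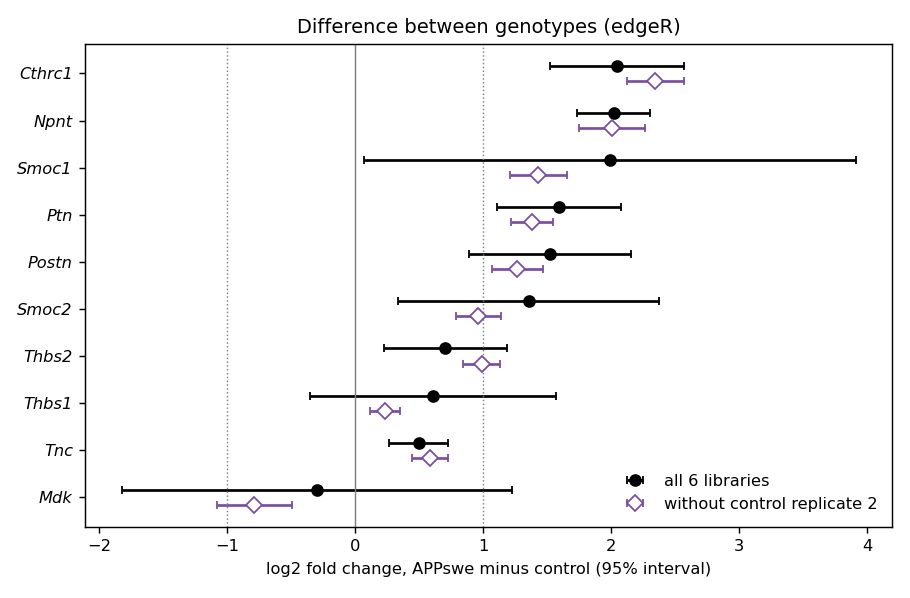
Log2 fold change of the 10 genes, APPswe minus control, from edgeR with 95% intervals, in all 6 libraries (filled circles) and without control replicate 2 (open diamonds). The intervals of Mdk, Smoc1, Smoc2 and Thbs1 were widest with all libraries and narrowed without that library, and Mdk alone had a value below 0.

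When control replicate 2 was left out, 5 of the 10 genes were called higher (the 4 above and Smoc1) and 0 lower, against 4.87% of 13753 genes called higher. By the adjusted p alone, 9 were higher and 1 lower in that comparison, where 23.3% of all genes passed as higher and 25.0% as lower. The library was not lower throughout. Relative to the mean of the other controls it was 1.69-fold for Cthrc1, 1.64-fold for Thbs2, 1.19-fold for Tnc and 0.972-fold for Npnt, but 0.587-fold for Ptn and 0.509-fold for Postn. Cthrc1, Thbs2 and Tnc were thus nearer to APPswe in replicate 2 than in the other controls, and the other genes, apart from Npnt, were farther from it or, for Mdk, beyond it. Together the 10 genes took 0.439%, 0.228% and 0.435% of all counts in control and 0.708%, 0.659% and 0.645% in APPswe, Thbs1 more than any other of them in every library.

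The library names came in 2 styles, with a hyphen (control replicates 1 and 2, APPswe replicate 1) and without one (control replicate 3, APPswe replicates 2 and 3), and the number of blank FPKM cells, 397 and 716, followed the style. What the styles stand for was not given. Within each style the 4 called genes were higher in APPswe, with differences on the log2(CPM + 0.5) scale of 1.79 to 1.97 in the first and 1.27 to 2.19 in the second. Mdk was higher by 0.83 in the first style and lower in the second, at -0.88. Smoc1 differed by 3.09 and 1.41, and Thbs1 by 1.11 and 0.20. The larger of each of these pairs belongs to the style that holds control replicate 2.

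Per transcript length, the 10 genes spanned more than 100-fold. In control the order of mean FPKM was Thbs1 (418 ± 214, SD, n = 3), Postn (166 ± 57.7), Thbs2 (85.0 ± 26.4), Tnc (48.4 ± 3.84), Mdk (32.0 ± 22.4), Ptn (21.9 ± 6.05), Cthrc1 (13.3 ± 4.38), Smoc2 (6.19 ± 3.38), Smoc1 (1.65 ± 1.36) and Npnt (1.41 ± 0.0907). Neighbours in that order overlapped over their libraries except between Thbs2 and Tnc and between Cthrc1 and Smoc2. In APPswe the order was Thbs1 (671 ± 21.1), Postn (504 ± 54.8), Thbs2 (146 ± 8.50), Tnc (72.6 ± 4.04), Ptn (69.9 ± 2.36), Cthrc1 (57.9 ± 1.26), Mdk (27.7 ± 5.68), Smoc2 (16.7 ± 0.222), Smoc1 (6.91 ± 0.136) and Npnt (5.96 ± 0.320). Only Tnc and Ptn overlapped there. The first 4 places and the last 3 were held by the same genes in both genotypes, and in the order of the means Mdk passed from above Ptn and Cthrc1 to below them.

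**Figure D3:**
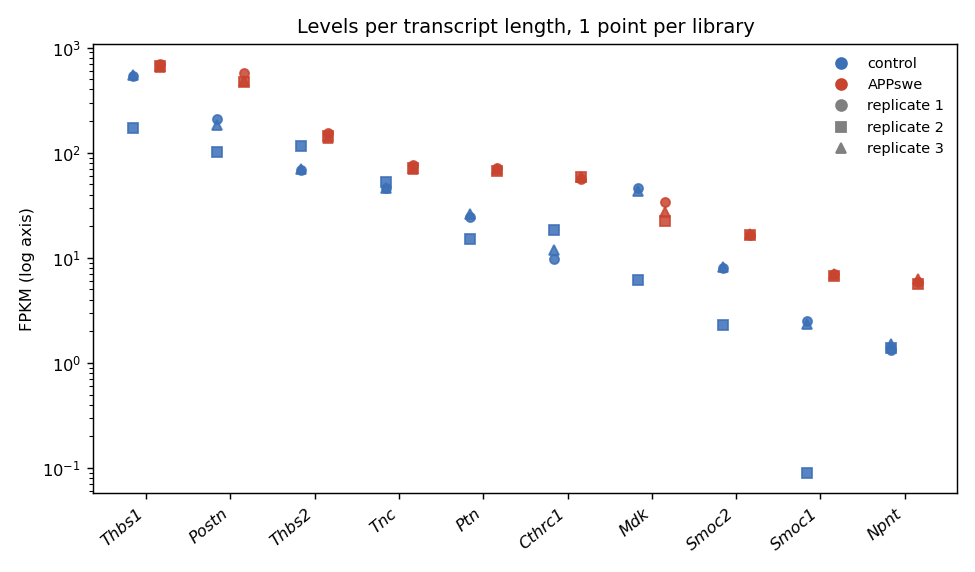
Deposited FPKM of the 10 genes on a log axis, 1 point per library, with control in blue, APPswe in red and a marker shape for each replicate number. Thbs1 and Postn lie at the top and Smoc1 and Npnt at the bottom in both genotypes, and the lowest point of all is Smoc1 in control replicate 2.

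Ratios between other pairs were taken within each library, again in FPKM. Postn over Tnc was 4.59, 1.91 and 3.98 in control and 7.34, 6.59 and 6.84 in APPswe, without overlap. Postn over Thbs2 was 3.07, 0.873 and 2.62 in control and 3.66, 3.26 and 3.45 in APPswe, so that replicate 2 was the only library with less Postn than Thbs2. Smoc2 over Smoc1 was 3.17, 25.4 and 3.53 in control and 2.35, 2.46 and 2.44 in APPswe, and Smoc2 was thus the more abundant of the pair in every library.

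The patterns over the 6 libraries were also compared gene by gene, by Pearson's r of log2 CPM among 10283 genes, as a description in which the genotype difference and control replicate 2 are shared by all genes. Among the 10, Cthrc1 was most like Tnc (r = 0.982), Ptn most like Postn (r = 0.989), Smoc1 most like Smoc2 (r = 0.991), Thbs1 most like Smoc1 (r = 0.986) and Thbs2 most like Tnc (r = 0.967). Npnt was most like Cthrc1 (r = 0.969). Mdk had the weakest best match, Thbs1 (r = 0.848), and was least like Thbs2 (r = -0.45). Outside the 10, the closest were the ephrin receptor gene Ephb2 for Cthrc1 (r = 0.9998), the prostaglandin receptor gene Ptger2 for Npnt (r = 0.9994), Slc16a1 for Ptn (r = 0.999), Runx1 for Postn (r = 0.999), Ccn1, itself a matricellular gene, for Smoc1 (r = 0.9997) and the coagulation factor gene F13a1 for Smoc2 (r = 0.999). For the others they were Tcea3 for Mdk (r = 0.994), Snrpg for Tnc (r = 0.998), Tshz2 for Thbs1 (r = 0.999) and Svil for Thbs2 (r = 0.997). In second place came Podn for Cthrc1, Rps20 for Npnt, Ccnl2 for Ptn, Mylip for Mdk, Gpr34 for Postn, Cdc42bpa for Tnc, Ism1 for Thbs1, Anxa2 for Thbs2, Itm2a for Smoc1 and Il1rn for Smoc2.

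Among 21 other matricellular genes, 18 were tested, of which 4 were higher and 3 lower in APPswe by the adjusted p (edgeR), and the median log2 fold change was 0.34. The shares of all genes to set beside these counts, and those of the lists that follow, were 10.5% higher and 12.0% lower. Fstl1, a secreted glycoprotein of the Sparc family, measured 678, 601 and 658 CPM in control and 1501, 1499 and 1483 CPM in APPswe (log2 fold change 1.21, adjusted p = 0.000509). Egfl6 rose from 5.37, 0.112 and 5.14 CPM to 26.2, 26.6 and 25.1 CPM (2.87, adjusted p = 0.0459), with control replicate 2 at 2 counts, below the floor. Sparcl1 fell by 1.24 on the log2 scale (adjusted p = 0.00454). Tnxb, the tenascin of loose connective tissue, gave a log2 fold change of -4.78 (adjusted p = 0.0424), but measured 99.7, 1.52 and 119 CPM in control and 2.86, 2.73 and 2.42 CPM in APPswe, so that control replicate 2 was below the APPswe libraries.

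Of 19 receptors and binding partners of the 10 proteins, 17 were tested, 1 was higher and 5 were lower by the adjusted p, with a median log2 fold change of -0.15. Sdc3, the syndecan that binds pleiotrophin, fell by 1.18 (edgeR, adjusted p = 0.00431), and Ptprz1, the receptor phosphatase of pleiotrophin and midkine, fell by 0.94 (adjusted p = 0.0405) from a control level of 4.57 CPM. The integrin chain Itgb5, which pairs with the alpha v chain to bind periostin, fell by 0.62 (adjusted p = 0.00326), while Sdc1 rose by 0.82 (adjusted p = 0.00219). Alk, a kinase described as a receptor of both growth factors, and its relative Ltk had at most 2 counts in any library and were not tested. Of the Npnt receptor, Itga8 had a log2 fold change of -0.64 (adjusted p = 0.0547) and Itgb1 of -0.15 (adjusted p = 0.550). Cd36, a thrombospondin receptor also made by macrophages, measured 35.1, 136 and 33.6 CPM in control and 266, 222 and 230 CPM in APPswe (log2 fold change 1.81, adjusted p = 0.0566). Without control replicate 2, Cd36 gave 2.81 (adjusted p = 7.60e-09), and Itga8 gave -0.46 (adjusted p = 0.0222). Itga8, Itgb1, Alk, Ltk and Cd36 are outside the naming rule and were picked with their values in view.

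Of 24 genes of heparan sulfate core proteins and their enzymes, 23 were tested, 4 were higher and 7 lower by the adjusted p, and the median log2 fold change was -0.26. The glypicans Gpc3, Gpc2 and Gpc6 rose by 1.83, 1.46 and 0.89 (edgeR, adjusted p = 0.00958, 0.00185 and 0.00152), Gpc3 from only 1.02 CPM, and the proteoglycan Agrn fell by 0.92 (adjusted p = 0.0186). Without control replicate 2, the counts of higher and lower genes by the adjusted p were 11 and 5 for the matricellular relatives, 4 and 8 for the receptors and 7 and 9 for the heparan sulfate genes. In that comparison 23.3% of all genes passed as higher and 25.0% as lower.

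**Figure D4:**
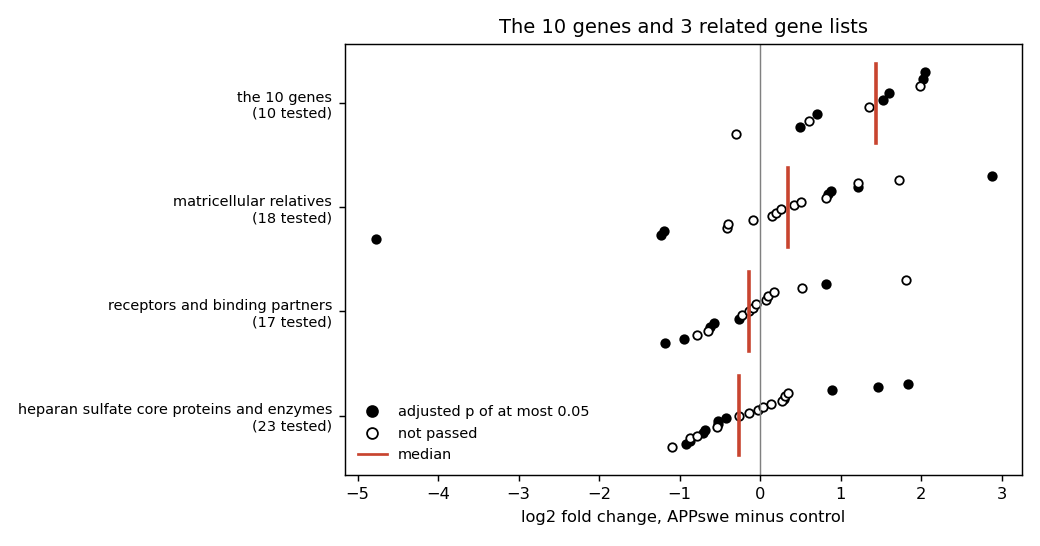
Log2 fold change (APPswe minus control, edgeR) of each tested gene among the 10 and in the 3 related lists, with filled points at an adjusted p of at most 0.05, open points above it and a red line at the median. The 10 genes had a median of 1.44, the matricellular relatives 0.34, the receptors -0.15 and the heparan sulfate genes -0.26.

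Marker genes of other cell types moved between the genotypes as well. They were counted by the adjusted p, which 10.5% of all genes passed as higher and 12.0% as lower. Of 8 fibroblast markers, 2 passed as higher, Col3a1 and Pdgfra, and 0 as lower, and their summed level was 1835 to 3496 CPM in control and 5897 to 6015 CPM in APPswe. Col3a1 made up most of that sum in APPswe, at 4744 to 4888 CPM, while Dcn measured 520, 55.8 and 474 CPM in control and 253, 228 and 222 CPM in APPswe. All 9 tested of 10 skeletal muscle markers were higher (4.85 to 12.5 against 156 to 163 CPM), with Ckm at 0 in all controls and Myod1 at 0 in control replicates 1 and 3. Of 7 tested osteoclast markers of 8, 5 were higher (158 to 290 against 719 to 731 CPM), and of 6 smooth muscle and pericyte markers, 2 were higher (1063 to 2188 against 2471 to 2573 CPM). Of 13 macrophage markers, 7 were lower and 0 higher (17708 to 24461 against 12437 to 13381 CPM), and 1 of 5 endothelial markers was lower (26.8 to 196 against 9.47 to 11.1 CPM). Of 12 osteoblast markers, 2 were higher and 1 lower (8684 to 11516 against 7943 to 8739 CPM). Col1a1 and Col1a2 made up most of that sum in every library, with 5705 and 5732 of 11516 CPM in control replicate 2. Of 3 tested chondrocyte markers of 5, 1 was higher, and of 4 tested Schwann and neural crest markers of 5, 0 passed. Leaving out control replicate 2 changed several of these counts by the adjusted p. Over all genes, 23.3% then passed as higher and 25.0% as lower. Of the fibroblast markers, 2 were then higher and 3 lower (Dcn, Lum and Dpt, with log2 fold changes of -1.08, -0.83 and -0.33), and of the osteoblast markers, 3 were higher and 6 lower, Dmp1 at -4.21 among them. All 5 endothelial markers and all 4 tested Schwann and neural crest markers were then lower, with medians of -4.36 and -1.79. Of the macrophage markers 1 was higher and 11 lower, of the smooth muscle and pericyte markers 3 and 3, of 4 tested chondrocyte markers 3 and 1, and all 7 osteoclast and all 9 skeletal muscle markers tested were higher. The part of these cell types in the levels of the 10 genes was not tested. Postn, Thbs2, Tnc and Cthrc1 are also made by fibroblasts, and Thbs1 by many cell types, macrophages included.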

How the data were processed

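The authors deposited raw read counts for each gene, together with FPKM rounded to 2 decimals. The log2 fold changes and p-values in the deposited table are the authors' own comparison and were not used. Libraries were prepared with a SMARTER mRNA-Seq kit and sequenced on DNBseq. The submitters' processing notes name the GRCm38 build, and the aligner and counting tool are not given in the sources used here. Groups and replicate numbers came from the sample labels.

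The genotypes were compared on these counts with edgeR 4.0.16 (R 4.3.3): filterByExpr kept 13484 of 17830 genes, TMM set library sizes, and the quasi-likelihood test was run without covariates, with Benjamini-Hochberg adjustment over all genes tested. The standard error was the log2 fold change over the square root of F. No pair of libraries agreed within sampling noise by chi-square, and each was kept as a replicate. The closest pair was APPswe replicates 2 and 3, at 1.59 per degree of freedom, against 7.38 and 7.90 for the other APPswe pairs. Whether that pair came from the same cells or animals is not given in the sources used here. If it did, the p-values and the APPswe SDs overstate the replication. Levels of different genes were compared in FPKM only. Exact permutation tests were not used, since 3 against 3 libraries cannot give p below 0.1. Alternatives were DESeq2 1.42.0, its size factors, no TMM, other filters, a replicate block, the style of library names, each library left out, and limma 3.58.1 on log2(FPKM + 1) or log2(FPKM + 0.1), in which blank FPKM cells were read as 0. The code was tested on simulated data.

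The 10 genes, the related lists and the markers were chosen with earlier results of these data known. All 10 genes are named, with the 4 largest changes that passed in each related list, and for each of the 10 the 2 genes most alike among those whose mean log2 CPM was 3 or more. Proteins were not analysed here.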

Additional observations from a re-analysis of the deposited data

How the results depend on the processing

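Cthrc1, Npnt, Ptn and Postn were called higher under all alternatives run, with adjusted p of at most 0.0178, 0.0119, 0.0250 and 0.0477. The number of the 10 genes called higher was 4 except for 5 with DESeq2 (Smoc2 added), 5 without control replicate 2 (Smoc1 added), 6 with limma on log2(FPKM + 1) (Smoc1 and Smoc2 added) and 6 with the adjusted p alone (Tnc and Thbs2 added), and 0 were called lower under any of them. Leaving out each library in turn gave 4 to 5. Smoc1 had no value at a minimum of 10 counts in every library. Mdk turned to a log2 fold change above 0 with the replicate block (0.059), without control replicate 1 (0.058; -0.79 to 0.058 with each library left out), and with limma on log2(FPKM + 1), with or without a filter (0.19), and on log2(FPKM + 0.1) (0.23), and the cause was not tested. Same-numbered control and APPswe libraries deviated from their group means together with r of 0.074, -0.036 and 0.158. Control replicates 1 and 3 correlated best with their own number, and control replicate 2 did not. With so few libraries in each mean, these values cannot decide whether the numbers pair the samples. With the replicate block 4 of the 10 genes were called and 5 passed the adjusted p, Thbs2 being at 0.0656. Thbs2 also missed the adjusted p with DESeq2 size factors (0.0514), no filter on low counts (0.0576), the style of library names (0.0621) and limma without a filter (0.0556). Over all genes, calls numbered 504 higher and 486 lower, against 320 higher at a minimum of 10 counts in every library, 322 and 181 with limma on log2(FPKM + 1), 294 and 161 without its filter, 248 lower with log2(FPKM + 0.1), and 1414 and 1622 with the adjusted p alone, and 281 to 670 higher and 230 to 905 lower with a library left out. Higher calls were 50.9% of the total, against 64.0% with limma on log2(FPKM + 1), 63.4% on log2(FPKM + 0.1) and 64.6% without the filter. With all 6 libraries, Smoc1, Smoc2 and Thbs1 did not pass the edgeR test, and they passed the adjusted p once control replicate 2 was left out.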
